A study of Mus musculus with 6 samples.

Results

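The genes described here encode 8 enzymes that pass nitrogen between glutamate, glutamine and other amino acids, or that make or use α-ketoglutarate in doing so: Glud1, Glul, Got1, Got2, Gpt, Gpt2, Oat and D2hgdh. They were taken by symbol from a table of 24956 genes, and all 8 were found there. RNA came from intestinal organoids, three-dimensional epithelial cultures kept in organoid medium, of the genotype Apc Min, which both groups share. The Apc Min allele truncates the Wnt pathway inhibitor APC. One group of 3 libraries is labelled control and the other group of 3 was treated with DM-aKG, a cell-permeable dimethyl ester of α-ketoglutarate, the metabolite that several of these enzymes produce or consume. The control treatment, the dose, the duration, the age of the mice and whether replicates came from separate mice are nowhere stated in the sources used here. If they did not, p-values measure only the spread between these cultures.

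Glutamate and α-ketoglutarate differ by an amino group. Glutamate dehydrogenase, encoded by Glud1, removes it as ammonia in mitochondria, whereas aminotransferases move it onto a second keto acid: onto oxaloacetate to give aspartate (Got1 in the cytosol, Got2 in mitochondria), or onto pyruvate to give alanine (Gpt in the cytosol, Gpt2 in mitochondria). Ornithine aminotransferase, encoded by Oat, links ornithine to glutamate in mitochondria, and in the small intestine it belongs to the route from glutamine and proline to citrulline. Glutamine synthetase, encoded by Glul, adds ammonia to glutamate, and D2hgdh oxidises D-2-hydroxyglutarate to α-ketoglutarate. Enterocytes are known as heavy users of glutamine. In liver, Glul and Oat are known as genes that β-catenin switches on.

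DM-aKG libraries held more RNA of 5 of the 8 enzymes and less of 1. Gpt, Gpt2 and Glud1 rose by about 1.60-fold, 1.54-fold and 1.45-fold in mean RPKM, and the aspartate aminotransferase genes Got1 and Got2 by 1.23-fold and 1.13-fold. Oat, by far the most abundant of the 8, fell to 0.645 of its control level. Glul and D2hgdh did not pass the test. Calls rest on limma at an adjusted p under 0.05 over all 10852 genes with a mean of at least 1 RPKM (reads per kilobase of a gene's transcript and relative to the reads of its library). Of those genes 55.6% were called (30.9% higher, 24.7% lower), so 6 of 8 is a count to be read against a background in which more genes than not were called. The median log2 fold change of the 8 was 0.23 and the median of its size 0.41, against 0.02 and 0.20 over all tested genes. As the 8 were chosen with earlier results of these data known, these medians describe them and are no test against the background.

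Depth, estimated from short RNA genes, was 32.7 to 34.3 × 10⁶ reads per library. With the exon lengths of GENCODE, that makes about 965 to 1088 reads per library for D2hgdh, the lowest of the 8, and 38702 to 64017 for Oat. Epithelial markers were high in every library (7 genes, summed RPKM 2593 to 2648 in control and 3418 to 4326 under DM-aKG). Within that sum the keratin genes Krt8, Krt18 and Krt19 rose in mean RPKM, Krt18 the most at 1.91-fold, whereas the adhesion gene Epcam went from 421 to 334 RPKM and the intestinal transcription factor gene Cdx2 from 70.3 to 40.6 (limma, adjusted p = 4.19e-04 and 0.00146). Summed over 9 fibroblast and muscle markers, the level was 0.14 to 0.22 in control and 0.31 to 0.79 under DM-aKG, with Col3a1 and Dcn at 0 throughout. Over 7 immune markers it was 1.32 to 1.58 and 2.21 to 3.38, most of it Cd68 and Itgam. Over 6 endothelial and glial markers it was 0.57 to 0.75 and 1.24 to 1.39, with Kdr and Cdh5 at 0. Among epithelial cell types, the summed stem cell markers (6 genes) were at 505 to 569 in control and 209 to 286 under DM-aKG, goblet markers (6 genes) at 1384 to 1507 and 496 to 655, and Paneth markers (7 genes) at 2196 to 2863 and 704 to 1643. Enteroendocrine markers (6 genes) went from 358 to 378 up to 522 to 542, whereas enterocyte markers (10 genes) overlapped between the groups, at 1959 to 2235 and 2163 to 2287. In bulk RNA, fewer cells of a type and less RNA per cell cannot be told apart, and the part of these shifts in the results on the enzymes was not tested. DM-aKG replicate 1 and control replicate 2 stood apart in Paneth RNA, with 1643 against 731 and 704 in the other DM-aKG libraries and 2863 against 2196 and 2277 in the other controls. Without both libraries, the same count of enzymes was called, 5 higher and 1 lower.

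Per length, the 8 genes spanned a wide range of levels. In control the order was Oat (807 RPKM), Got2 (60.4), Glud1 (47.3), Got1 (36.5), Glul (28.6), Gpt (13.9), Gpt2 (7.88) and D2hgdh (7.49). Oat lay above 99.2% of all tested genes by its mean over the 6 libraries, and D2hgdh above 37.6%. The libraries of neighbours in this order did not overlap in control, except for Gpt2 (7.53 to 8.06) and D2hgdh (7.32 to 7.77). Under DM-aKG the order differed in 1 place: Glud1, at 67.0 to 70.2 RPKM, overlapped with Got2, at 67.2 to 69.7, and the mean of Glud1 was the higher by less than that spread. Gpt2, at 11.9 to 12.3, then stood clear of D2hgdh, at 6.85 to 7.21. Oat made up 79.2% to 80.5% of the summed RPKM of the 8 genes in control and 65.8% to 68.1% under DM-aKG. The sum of the other 7 was 200 to 203 RPKM in control and 249 to 254 under DM-aKG.

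**Figure D1:**
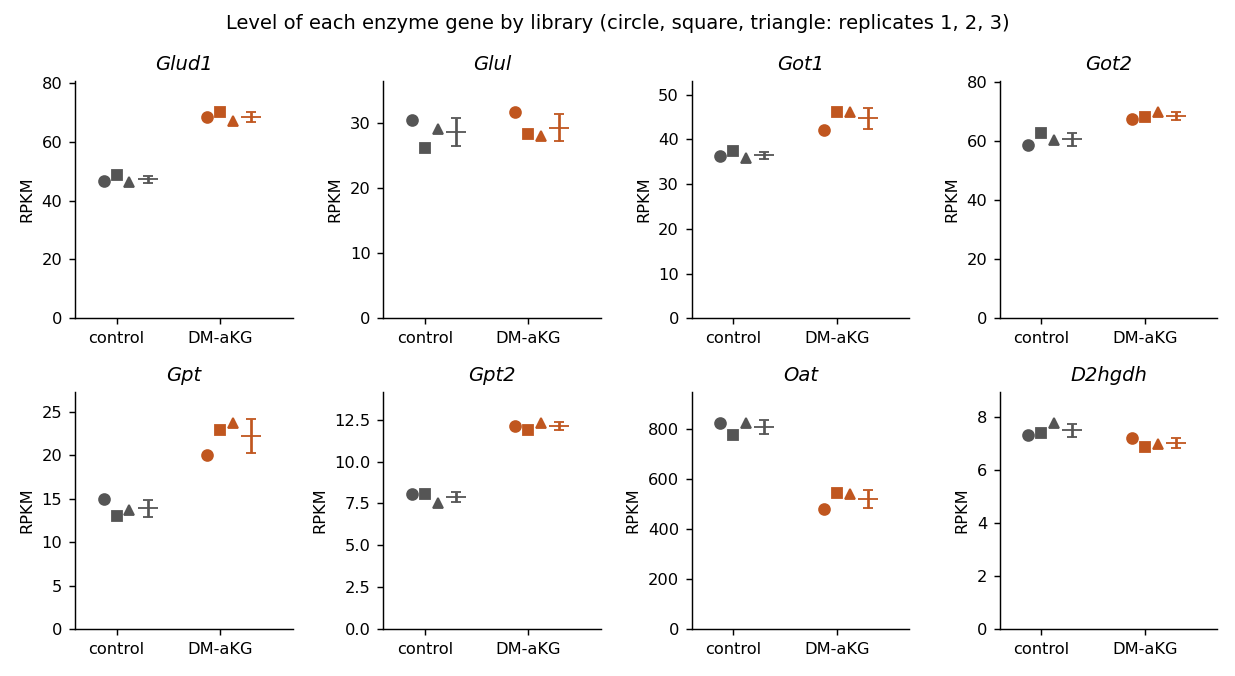
Level of each of the 8 enzyme genes in RPKM (vertical axes from 0) in the 3 control (grey) and 3 DM-aKG (orange) libraries, with the mean and SD to the right of the points. The groups are apart in every panel but that of Glul, beside 64.2% of all tested genes whose groups do not overlap. The groups lie closest in D2hgdh, where 7.32 in control and 7.21 under DM-aKG are the nearest values.

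Glud1 is the main route by which glutamate loses its amino group as free ammonia. It was at 46.9, 48.7 and 46.2 RPKM in control replicates 1, 2 and 3, and at 68.4, 70.2 and 67.0 under DM-aKG. All DM-aKG libraries were above all controls, with a spread of about 1.30 (SD) in control and 1.60 under DM-aKG around means of 47.3 and 68.6 RPKM (n = 3 each). The log2 fold change was 0.53 ± 0.04 (SE; limma, adjusted p = 5.08e-05). Glud1 lies on chromosome 14, 34310727 to 34345265, plus strand of GRCm38, with no other annotated gene over it.

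Glul encodes the enzyme that takes ammonia up again, fixing it into glutamine. It was at 30.5, 26.2 and 29.0 RPKM in control and at 31.7, 28.2 and 27.9 under DM-aKG. The groups overlapped throughout, with means of 28.6 ± 2.19 and 29.3 ± 2.07 (SD, n = 3), and the log2 fold change was 0.04 with a 95% interval from -0.13 to 0.20 (limma, adjusted p = 0.693). That interval leaves room for a modest change either way, and the sign of this small difference turned with median centring and with the omission of control replicate 2 or DM-aKG replicate 1. Glul (chromosome 1, 153899944 to 153909723, plus strand) shares its span with Teddm2, on the other strand and at no more than 0.02 RPKM, and with the miRNA gene Mir8114, listed at 0.

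Set against each other within a library, the ratio of Glud1 to Glul was 1.54, 1.86 and 1.59 in control and 2.16, 2.49 and 2.40 under DM-aKG. The lowest DM-aKG ratio was above the highest control ratio. The difference was 0.50 on the log2 scale (two-sided exact permutation test over libraries, p = 0.1, the smallest that 3 against 3 can give; 0.15 adjusted over the 3 ratios tested).

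The alanine aminotransferases rose most. Gpt, the cytosolic enzyme, was at 15.0, 13.1 and 13.7 RPKM in control and at 20.1, 22.9 and 23.8 under DM-aKG, so the lowest treated library exceeded the highest control. Its log2 fold change was 0.66 ± 0.08 (SE; limma, adjusted p = 3.12e-04). Gpt2, the mitochondrial enzyme and a known target of the amino acid response factor ATF4, was at 8.06, 8.06 and 7.53 RPKM in control and at 12.2, 11.9 and 12.3 under DM-aKG. The SD of the DM-aKG libraries was 0.217 RPKM, and the log2 fold change was 0.59 ± 0.05 (SE; limma, adjusted p = 6.15e-05). Of all tested genes, 9.78% had a larger change in size than Gpt and 12.0% a larger one than Gpt2. The ratio of Gpt2 to Gpt was 0.538, 0.617 and 0.550 in control and 0.606, 0.518 and 0.518 under DM-aKG. These ratios overlapped (log2 difference -0.07; two-sided exact permutation test, p = 0.5, where 0.1 is the smallest possible), and the difference was -0.139 without DM-aKG replicate 1 and -0.008 without control replicate 2. The genes are unlinked, Gpt on chromosome 15 (76695716 to 76699686, plus strand) and Gpt2 on chromosome 8 (85492576 to 85527560, plus strand).

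The aspartate aminotransferases, which also carry reducing equivalents between cytosol and mitochondria as part of the malate-aspartate shuttle, rose less. Got1 was at 36.2, 37.3 and 35.8 RPKM in control and at 42.1, 46.1 and 46.0 under DM-aKG (log2 fold change 0.29 ± 0.05, SE; limma, adjusted p = 0.00169). DM-aKG replicate 1 was the lowest of its group for Got1, Got2 and Gpt. Got2 was at 58.4, 62.6 and 60.3 RPKM in control and at 67.2, 68.2 and 69.7 under DM-aKG (log2 fold change 0.18 ± 0.04, SE; limma, adjusted p = 0.00797). The groups did not overlap for either gene, as in 64.2% of all tested genes. Of all tested genes, 55.1% had a larger change in size than Got2, whose call was lost under quantile normalization (log2 fold change 0.10; limma, adjusted p = 0.0580). The ratio of Got1 to Got2 was 0.621, 0.597 and 0.594 in control and 0.626, 0.677 and 0.660 under DM-aKG, a log2 difference of 0.11 (two-sided exact permutation test, p = 0.1, the smallest possible; 0.15 adjusted over the 3 ratios). Here DM-aKG replicate 1, at 0.626, lay just above control replicate 1, at 0.621. Got1 lies on chromosome 19 (43499752 to 43524605, minus strand) and Got2 on chromosome 8 (95864134 to 95888547, minus strand). A processed pseudogene of Got2, Got2-ps1, is annotated on chromosome 5. How reads that match both were assigned is not given, so some uncertainty attaches to the level of Got2, as it does to that of Glud1, which has the pseudogene Glud-ps.

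**Figure D2:**
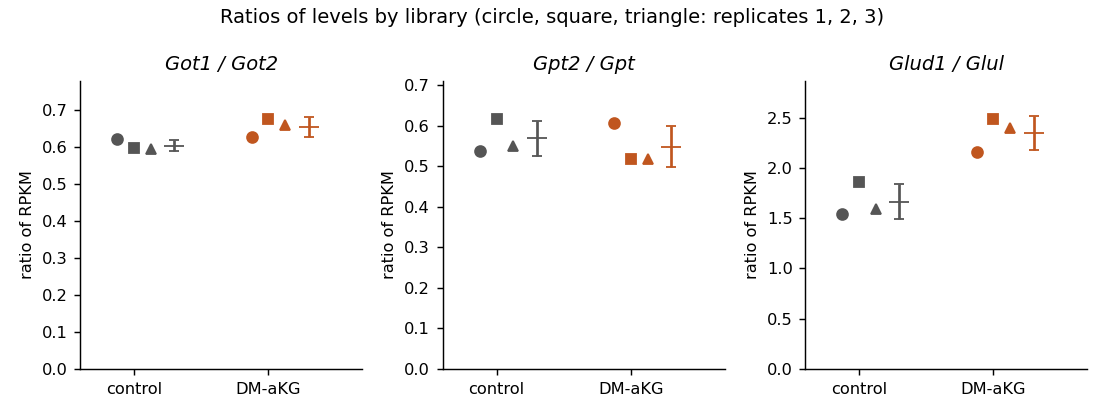
Ratio of RPKM between paired enzymes in each library (vertical axes from 0; control grey, DM-aKG orange), with the mean and SD beside the points. The ratio of Glud1 to Glul moves from 1.54 to 1.86 in control up to 2.16 to 2.49, whereas the ratios of Gpt2 to Gpt overlap.

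Oat went the other way. It was at 822, 775 and 825 RPKM in control and at 478, 543 and 541 under DM-aKG. Every treated library lay far below every control, and DM-aKG replicate 1 was the lowest. The mean went from 807 ± 28.0 to 521 ± 36.7 RPKM (SD, n = 3), a change of -35.5%, and the log2 fold change was -0.63 ± 0.06 (SE; limma, adjusted p = 1.68e-04). Without DM-aKG replicate 1 it was -0.57 (limma, adjusted p = 2.52e-05), and under quantile normalization -0.43 (limma, adjusted p = 0.00135). In RPKM this loss was larger than the summed gain of the 5 genes that rose. Oat lies on chromosome 7, 132557478 to 132576398, minus strand, and an annotated transcript of Fgfr2 reaches over it on the same strand. Fgfr2 was at 1.03 to 6.51 RPKM in all libraries, and its mean was 0.76% of that of Oat in control and 0.27% under DM-aKG.

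D2hgdh, whose enzyme returns D-2-hydroxyglutarate to the α-ketoglutarate pool, was not called. It was at 7.32, 7.37 and 7.77 RPKM in control and at 7.21, 6.85 and 6.96 under DM-aKG. Each treated library was below each control, by as little as 0.11 RPKM at the nearest pair. The log2 fold change was -0.09 with a 95% interval from -0.20 to 0.02 (limma, adjusted p = 0.156); it passed with median centring (log2 fold change -0.14; limma, adjusted p = 0.0420) and with array weights (-0.14; limma, adjusted p = 0.0131). D2hgdh lies on chromosome 1, 93824909 to 93852348, plus strand.

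**Figure D3:**
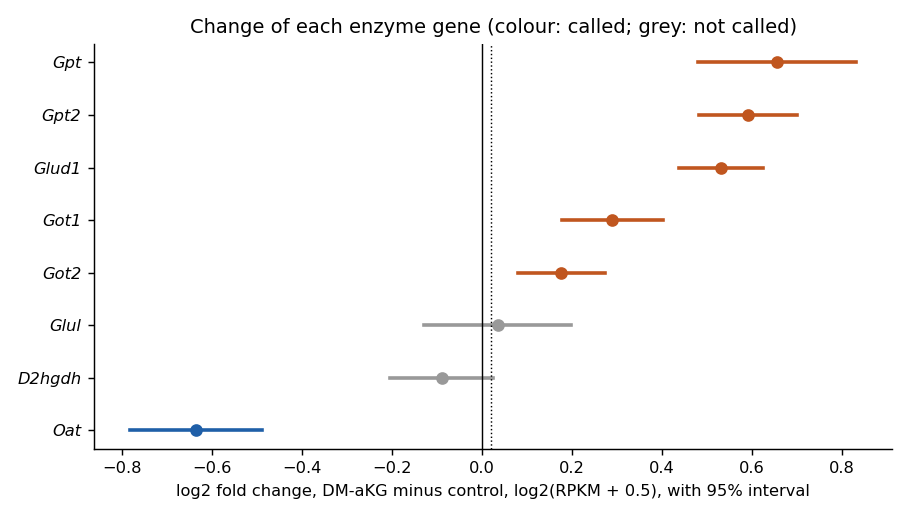
Log2 fold change of each enzyme gene (DM-aKG minus control, on log2(RPKM + 0.5)) with its 95% interval from limma; orange is called higher, blue called lower, grey not called, and the dotted line is the median of all tested genes, 0.02. The interval of Oat, -0.78 to -0.49, lies wholly on the other side of 0 from those of Gpt, Gpt2, Glud1, Got1 and Got2.

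Windows of 300 bases around the RefSeq start site (250 before, 50 after; build GRCm38.p6) were at hand for 7 of the 8 genes and differed in base composition, from 57.3% G and C in Got1 to 81.0% in Glud1, with a median of 52.7% over all 32851 windows. Both strands were searched for the cores TGACNNNGC (antioxidant response element), TGATGNAA (C/EBP-ATF response element), TCAAAG (TCF/LEF) and CACGTG (E-box), which occur in 12.4%, 3.97%, 16.0% and 7.15% of all windows. There were 2 matches: the C/EBP-ATF core in Got1, on the strand opposite to the gene's (TTGCATCA as printed) and beginning 102 bases before the start site, and the TCF/LEF core in D2hgdh, 167 bases before it. A match describes letters only. Of the other genes that rose, Glud1, Got2 and Gpt2 hold no match, and Gpt had no window. The windows of Got1, which holds a match, and of Oat, which holds none, are shown 5′ to 3′ on the gene's strand, with the match in capitals.
Got1 promoter (chr19:43524556-43524855, minus strand): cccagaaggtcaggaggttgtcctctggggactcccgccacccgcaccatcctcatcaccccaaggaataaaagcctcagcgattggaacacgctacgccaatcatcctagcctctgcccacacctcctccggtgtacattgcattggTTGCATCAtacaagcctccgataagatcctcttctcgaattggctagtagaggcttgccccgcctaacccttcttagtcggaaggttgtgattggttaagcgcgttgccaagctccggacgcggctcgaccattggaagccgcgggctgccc
Oat promoter (chr7:132576349-132576648, minus strand): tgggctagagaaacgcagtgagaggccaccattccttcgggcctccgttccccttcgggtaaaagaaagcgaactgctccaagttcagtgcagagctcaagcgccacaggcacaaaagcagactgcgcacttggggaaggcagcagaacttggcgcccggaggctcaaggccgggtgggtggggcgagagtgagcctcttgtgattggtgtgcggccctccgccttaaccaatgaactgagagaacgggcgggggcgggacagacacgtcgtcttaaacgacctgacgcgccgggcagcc

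Around these 8 enzymes, 49 of 68 other genes of glutamine, glutamate and α-ketoglutarate metabolism in the table were tested, in 6 lists. In all, 17 were higher, 15 lower and 17 not called, or 65.3% called against the background of 55.6%, with a median log2 fold change of 0.03. The lists, too, were chosen with earlier results of these data known.

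Enzymes of proline, ornithine and the urea cycle, the neighbours of Oat, were called in both directions: of 12 tested, 2 were higher, 6 lower and 4 not called, with a median of -0.19. Cps1, which makes carbamoyl phosphate in mitochondria, went from 326 ± 6.88 to 191 ± 16.6 RPKM (SD, n = 3), a log2 fold change of -0.77 (limma, adjusted p = 7.11e-05). Otc, which joins that product to ornithine to give citrulline, went from 22.4 ± 0.577 to 16.0 ± 3.65 RPKM (limma, adjusted p = 0.0142). DM-aKG replicate 1 was the highest treated library for Otc, at 20.2 RPKM against 14.3 and 13.6, and without DM-aKG replicate 2 the call was lost (limma, adjusted p = 0.0544). Ass1, which turns citrulline into argininosuccinate, had the largest fall among the tested genes of all 6 lists, with means of 12.8 ± 1.35 and 3.54 ± 0.942 RPKM and a log2 difference of -1.75 ± 0.17 (SE; adjusted p = 1.34e-04 by limma). Asl, which releases arginine from it, went from 24.2 ± 1.38 to 20.5 ± 0.521 RPKM (limma, adjusted p = 0.00592). Not called were Nags, whose product activates the enzyme of Cps1, at 13.0 ± 1.32 and 11.7 ± 0.761 RPKM (limma, adjusted p = 0.160), and Aldh18a1, whose product feeds Oat from glutamate, at 102 ± 0.627 and 106 ± 7.43 RPKM (limma, adjusted p = 0.405). Nags passed as lower with array weights (limma, adjusted p = 0.00353) and without control replicate 2 (limma, adjusted p = 0.0286). Arg2, the mitochondrial arginase that supplies ornithine from arginine, was higher, at 43.5 ± 2.78 RPKM against 20.7 ± 4.02 in control, a log2 difference of 1.07 (adjusted p = 4.19e-04 by limma). In proline metabolism the pair of breakdown enzymes split: Prodh went from 4.11 ± 0.247 to 2.97 ± 0.223 RPKM and Aldh4a1, which carries the product on to glutamate, from 2.43 ± 0.395 to 4.20 ± 0.159. Pycrl, a proline synthesis enzyme, went from 30.6 ± 1.04 to 24.2 ± 1.47 RPKM (adjusted p = 0.00152 by limma). Without control replicate 2 and DM-aKG replicate 1, 2 members of the list were higher and 8 lower. The other alternatives had 5 to 7 lower. Over all tested genes, the same omission gave 3270 lower of 10837, against 2679 of 10852 in the main fit.

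Gls2 encodes a glutaminase, which releases glutamate from glutamine. It was at 2.54 ± 0.176 RPKM in control and 2.37 ± 0.0710 under DM-aKG (SD, n = 3; limma, adjusted p = 0.367). Of 9 tested enzymes that spend the amide nitrogen of glutamine, 4 were higher, 2 lower and 3 not called. Cad, which begins pyrimidine synthesis, rose from 10.9 ± 0.544 to 15.2 ± 0.272 RPKM, Asns, the asparagine synthetase gene, from 127 ± 2.39 to 160 ± 2.24, and Gfpt1, which begins hexosamine synthesis, from 64.6 ± 2.06 to 83.8 ± 3.10 (limma, adjusted p = 2.27e-04, 3.06e-04 and 3.76e-04). Ppat, which begins purine synthesis, went from 14.8 ± 1.36 down to 9.96 ± 1.56 RPKM (adjusted p = 0.00369 by limma).

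Of 5 tested aminotransferases beside Got1, Got2, Gpt, Gpt2 and Oat, 3 were higher, 1 lower and 1 not called. Psat1, which transfers nitrogen from glutamate in serine synthesis and releases α-ketoglutarate, rose from 67.6 ± 2.23 to 85.5 ± 5.06 RPKM (adjusted p = 0.00130 by limma). Kyat1, a kynurenine aminotransferase, rose from 11.4 ± 0.482 to 13.5 ± 0.422 RPKM, and Abat, which degrades GABA, from 1.96 ± 0.147 to 2.76 ± 0.309 (limma, adjusted p = 0.00550 and 0.00678).

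Among 11 tested enzymes of 2-hydroxyglutarate and α-ketoglutarate, 4 were higher, 3 lower and 4 not called. Ogdh and Dlst, subunits of the α-ketoglutarate dehydrogenase complex that oxidises the metabolite in the TCA cycle, rose, Ogdh from 42.5 ± 1.55 to 64.1 ± 5.96 RPKM and Dlst from 68.2 ± 2.15 to 91.1 ± 6.97 (SD, n = 3; limma, adjusted p = 3.68e-04 and 9.78e-04). Idh2, a mitochondrial isocitrate dehydrogenase that makes it, went from 71.7 ± 4.27 to 60.8 ± 1.78 RPKM (adjusted p = 0.00654 by limma). The other isocitrate dehydrogenase genes of the list were mixed. Idh1 was called higher, from 96.4 to 107.7 RPKM, and Idh3a lower, from 72.5 to 64.6 (limma, adjusted p = 0.0143 and 0.0140). Idh3b and Idh3g were not called. Of 11 tested carriers, 4 were higher, 3 lower and 4 not called. Slc25a15, which brings ornithine into mitochondria, where Oat and Otc act, had 44.2 ± 0.603 RPKM in control and 33.2 ± 0.616 under DM-aKG, -0.41 ± 0.04 on the log2 scale (SE; adjusted p = 1.10e-04 by limma). The glutamine importer gene Slc1a5 went from 66.4 ± 0.860 down to 55.4 ± 3.57 RPKM (limma, adjusted p = 0.00382). The neutral amino acid transporter gene Slc1a4 rose from 26.0 ± 4.78 to 42.5 ± 2.85 RPKM and the glutamate importer gene Slc1a1 from 2.92 ± 0.352 to 4.27 ± 0.0800 (limma, adjusted p = 0.00159 and 0.00199).

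**Figure D4:**
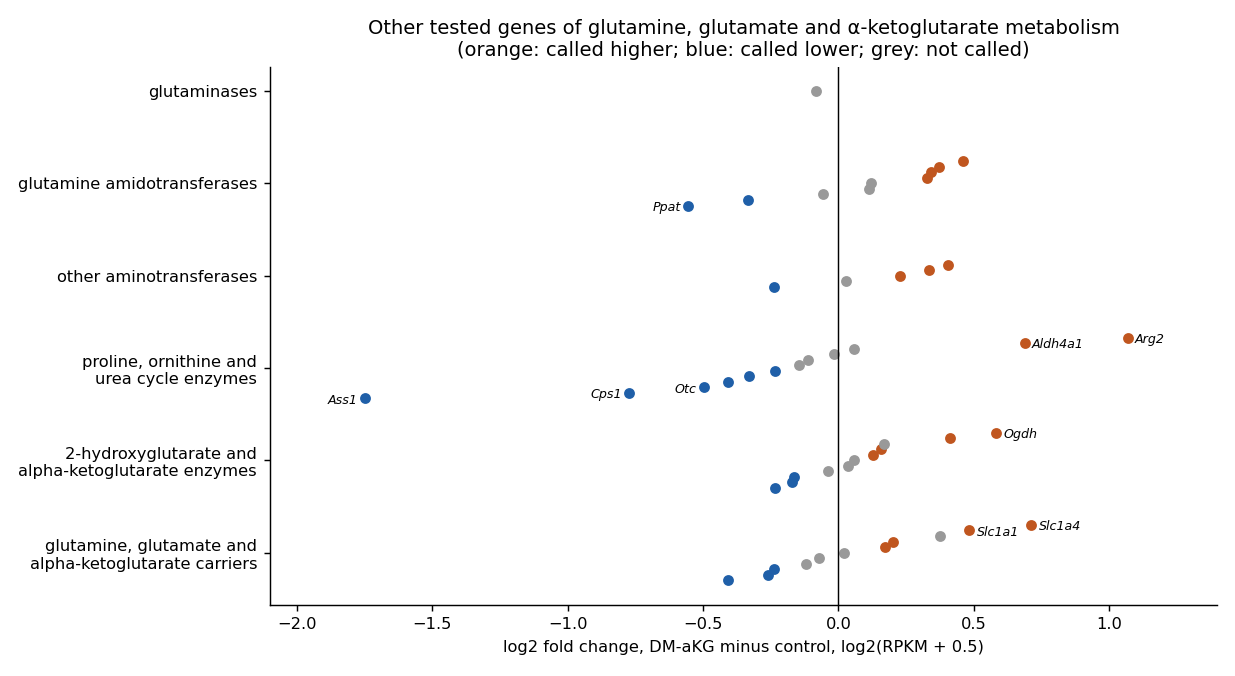
Log2 fold change (horizontal axis, DM-aKG minus control, on log2(RPKM + 0.5)) of the 49 other tested genes in 6 lists (rows; the offset within a row only separates points). Orange points were called higher, blue lower, grey not called; Ass1 at -1.75 and Arg2 at 1.07 mark the ends, both among enzymes of proline, ornithine and the urea cycle.

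Over the 6 libraries, the genes with a mean of at least 10 RPKM whose log2 levels followed those of Gpt most closely were Vcl, Ap3m1 and Cfl2 (Pearson r of 0.9999, 0.9993 and 0.9992). Those closest to Oat were Fdft1, Use1 and Mvk (0.9989, 0.9988 and 0.9981). These values describe 6 points that fall into a pair of groups: of 5631 candidates, 995 had r over 0.95 with Gpt and 249 with Oat.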

How the data were processed

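RNA-seq was available for 6 libraries, 3 control and 3 DM-aKG, grouped by title. The authors deposited RPKM values with 2 decimals. CASAVA 1.8, HISAT2 2.0.4, Partek and build mm10 are named per the submitters' processing notes, with no roles; the annotation, the strand setting and the rule for multiply matching reads are nowhere stated in the sources used here. Reads shared with overlapping or near-identical genes could therefore move a level.

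Values were analysed as log2(RPKM + 0.5) for the 10852 genes with a mean of at least 1 RPKM (14104 were below); a fold change on this scale understates that of low genes. limma 3.58.1 in R 4.3.3 (lmFit, then eBayes with trend; two-sided) compared the groups over all of them, with Benjamini-Hochberg adjustment and calls under 0.05. Ratios of RPKM were compared by exact permutation tests. Depth came from short RNA genes (miRNA and snoRNA, up to 150 bases), where 1 read is a large step: 34 to 55 values per library fell at 1 read, and 90.9% to 94.4% of the others up to 5 reads were whole within 0.05 reads. It covers counting error only. Positions are from GENCODE M21, promoter windows from RefSeq. Figures used Python 3.11.15 and matplotlib 3.10.9.

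The members and lists were chosen with earlier results of these data known. Named in the lists were the 3 genes with the smallest p. Otc, Asl, Aldh4a1, Prodh, Pycrl, Aldh18a1, Ppat, Slc1a5, Nags, Idh1, Idh3a, Idh3b and Idh3g were added after their values were seen. Some genes of these pathways are not reported here and stand in no list count. Alternatives covered pseudocount, filter, scaling, variance model, array weights, a replicate block and omitted libraries.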

Additional observations from a re-analysis of the deposited data

How the results depend on the processing

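Under 17 alternatives the calls and directions of Glud1, Got1, Gpt, Gpt2 and Oat were kept, with log2 fold changes of 0.47 to 0.57, 0.24 to 0.35, 0.59 to 0.73, 0.54 to 0.63 and -0.68 to -0.43. Leaving out each library in turn kept 5 enzymes higher and 1 lower; the lower count was 2 with median centring and with array weights, where D2hgdh passed. The log2 fold change of Glul, called in no setting, was -0.013 with median centring, -0.022 with quantile normalization, -0.030 with array weights and -0.082 without control replicate 2 and DM-aKG replicate 1 together; with single libraries left out it went from -0.025 (without control replicate 2) to 0.083. That of Aldh18a1 was -0.005 without both libraries and -0.000 to 0.094 with single ones left out; the cause was not tested. Of 22 called genes named in the lists, Idh1 and Idh3a aside, 21 kept their call in every setting that tested them, all but Otc. Abat was tested in 16 of the 17, as its mean was below the stricter filter of 3 RPKM. Idh1 and Idh3a were not followed singly through the alternatives. With median centring, and without control replicate 3, the list of 2-hydroxyglutarate and α-ketoglutarate enzymes had 2 higher. Ogdh and Dlst kept their calls in both settings, so Idh1 was not called higher there. Over all tested genes, median centring turned 3354 higher and 2679 lower into 2790 and 3340 and moved the median from 0.02 to -0.03; the 6 lists then had 14 higher and 16 lower.

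No pairing by replicate number was seen: same-numbered deviations from the group means correlated at -0.083, -0.114 and 0.011. Such correlations, from 3 libraries per group, cannot show that the libraries were unpaired. With the replicate number as a block, 5748 genes in all were called in place of 6033, the same 6 enzymes among them, and the log2 difference of the ratio of Glud1 to Glul was 0.496 (exact permutation test by sign flips, p = 0.25, the smallest possible). With single libraries left out, the log2 difference of the ratio was 0.443 to 0.579 for Glud1 to Glul, 0.089 (without DM-aKG replicate 2) to 0.145 (without DM-aKG replicate 1) for Got1 to Got2, and -0.139 (without DM-aKG replicate 1) to -0.008 (without control replicate 2) for Gpt2 to Gpt, so that the last rests on single libraries.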
